A study of Homo sapiens with 3 samples.

Results

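The clustered protocadherin genes are the alpha, beta and gamma protocadherins that lie side by side on human chromosome 5, from position 140786140 to 141512975 (GRCh38), a stretch of 727 kb. Members were the coding genes whose symbols begin with PCDHA, PCDHB, PCDHGA, PCDHGB or PCDHGC and end in a number. There were 53 of them among 18845 coding genes with a start site: 15 alpha, 16 beta and 22 gamma genes. EP300, a histone acetyltransferase and transcriptional coactivator, was mapped by chromatin immunoprecipitation and sequencing (ChIP-seq) in H9, an established human embryonic stem cell line. The wild-type cells were kept in the naive state on mouse embryonic fibroblasts in N2B27 medium with PXGL, that is PD0325901 (a MEK inhibitor), XAV939 (a tankyrase inhibitor), Go 6983 (a protein kinase C inhibitor) and human LIF at 10 ng/mL. Crosslinking took 10 min in 1% formaldehyde, and glycine at 0.125 M then stopped it within 5 min. The data are 2 EP300 peak tables, called replicates 1 and 2 here, and 1 input sample that has no table of its own.

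Clustered protocadherins are cell-surface adhesion proteins known for giving individual neurons different surface identities, so that branches of the same neuron recognise and avoid each other. Each variable alpha or gamma gene has its own promoter and a large first exon that encodes the outer part of the protein, and its transcript is spliced to constant exons shared by the whole cluster, whereas a beta gene encodes its protein in one exon. In neurons a cell uses few of these promoters, and the choice is known to involve a conserved promoter element with the core CGCT, CTCF, cohesin, DNA methylation and distal enhancers; the C-type genes at the ends of the alpha and gamma clusters are used more uniformly.

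The promoter elements show how alike the members are just before their start sites. The EP300 summits of occupied members lay downstream of the start at all but PCDHAC1, and the sequences under the summits were not compared. RefSeq promoter sequences (GRCh38.p14) were in the table used for 47 of the 53 members. Each stretch below is the plus strand, which is the sense strand of every member, read 5′ to 3′ and ending before or at the base before the start site, with the CGCT core or its counterpart in capitals. The first 5 are variable alpha genes with an EP300 region at the start in both replicates, and the next 3 are variable alpha genes without one.
PCDHA10 (chr5:140855837-140855876): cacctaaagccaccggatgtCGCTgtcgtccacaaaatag
PCDHA11 (chr5:140868879-140868918): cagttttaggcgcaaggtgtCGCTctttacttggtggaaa
PCDHA4 (chr5:140806975-140807014): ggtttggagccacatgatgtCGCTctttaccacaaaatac
PCDHA2 (chr5:140794777-140794816): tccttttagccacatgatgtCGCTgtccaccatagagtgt
PCDHA9 (chr5:140848283-140848322): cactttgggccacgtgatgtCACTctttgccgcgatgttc
PCDHA6 (chr5:140827893-140827932): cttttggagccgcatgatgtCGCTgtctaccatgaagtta
PCDHA8 (chr5:140841126-140841165): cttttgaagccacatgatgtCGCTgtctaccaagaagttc
PCDHA5 (chr5:140821538-140821577): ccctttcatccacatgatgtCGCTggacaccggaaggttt
Among the 11 variable alpha genes with a sequence, 10 of the 40 aligned positions held the same base in all genes and 22 of 40 held the same base in at least 80% of them. PCDHA9 is the exception in the core itself, with the substitution G2A (counted from 1 at the 5′ end of CGCT). In these genes the core began between 38 and 81 bases before the start of the promoter entry. Median core positions were 56.5 bases before the start in the 6 occupied genes and 47 in the 5 others.

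Beta and gamma genes carry their own versions of the element. In the lines that follow, PCDHB2, PCDHB15, PCDHGB6 and PCDHGB4 had an EP300 region at the start in both replicates, and PCDHB4, PCDHB10 and PCDHGB5 did not.
PCDHB2 (chr5:141094540-141094579): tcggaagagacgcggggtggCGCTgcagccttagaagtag
PCDHB15 (chr5:141245310-141245349): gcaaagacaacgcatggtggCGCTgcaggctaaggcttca
PCDHB4 (chr5:141121719-141121758): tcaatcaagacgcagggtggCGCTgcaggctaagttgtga
PCDHB10 (chr5:141192295-141192334): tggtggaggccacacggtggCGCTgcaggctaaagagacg
PCDHGB6 (chr5:141407920-141407959): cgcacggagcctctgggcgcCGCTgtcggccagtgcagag
PCDHGB4 (chr5:141387613-141387652): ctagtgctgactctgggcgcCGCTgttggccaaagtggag
PCDHGB5 (chr5:141397859-141397898): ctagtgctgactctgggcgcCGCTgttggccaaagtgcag
PCDHGB4, with a region, and PCDHGB5, without one, were identical at 39 of the 40 printed bases.

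At the level of start sites, EP300 was found at fewer clustered protocadherins than at coding genes in general, and where it was found the alpha genes held the highest values. A start site was counted as occupied when overlapping peaks of both replicates formed a region no more than 1 kb away from the gene's RefSeq 5′ end. That was so for 19 of the 53 members (35.8%), against 72.3% of all 18845 coding genes. The 19 were 8 of 15 alpha, 5 of 16 beta and 6 of 22 gamma genes. Another 8 members had a peak within 1 kb in 1 replicate alone, and 26 had none in either. Among all coding genes the last 2 classes made up 4.37% and 23.3%, so that single-replicate peaks were a larger share of the members (15.1%) than of genes in general. Because the samples form 1 group and nothing in the labels says that they came from separate cultures, these shares are descriptions, and no test was made.

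The authors' own gene names gave the same number by another route. Among the deposited rows, 38 of replicate 1 and 43 of replicate 2 were named for a member, which joined to 35 and 40 peaks at 25 and 27 genes. Overlapping peaks of both replicates were named for the same member in 19 of 53 cases (35.8%), against 74.6% of coding genes. For 21 members (39.6%) no peak of either replicate was named, against 19.1% of coding genes. The 1129 coding genes left out for want of a strand had no peak named for them, while members without a strand of their own were kept. The 19.1% is therefore too low and the 74.6% too high as a comparison, by amounts not worked out here. The 2 sets of 19 are not the same genes, because the nearest-gene naming also takes peaks away from the start, as at PCDHGA2, PCDHGB2 and PCDHGC5, and gives some start-site peaks to unnamed transcripts, as at PCDHA12, PCDHB16 and PCDHGB1 in 1 replicate each.

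**Figure D1:**
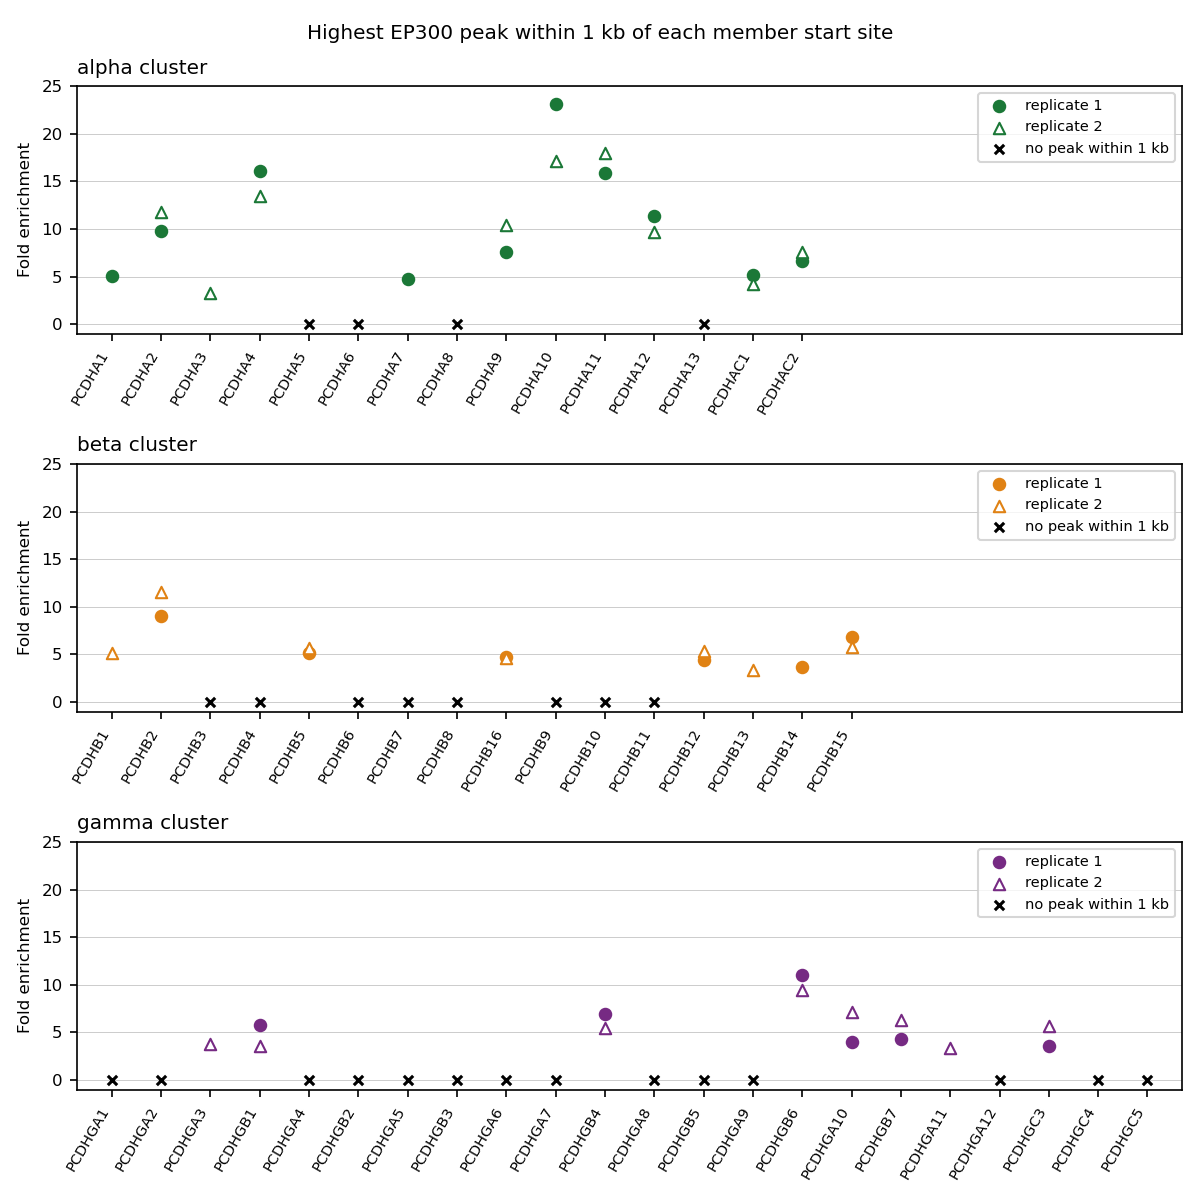
Fold enrichment over input (y axis) of the highest EP300 peak within 1 kb of each member's start site, with members in chromosomal order in 3 panels; filled circles are replicate 1, open triangles replicate 2, and crosses mark members with no peak in either. The alpha genes PCDHA10, PCDHA11 and PCDHA4 stand above all beta and gamma genes in both replicates, and most gamma genes carry crosses.

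PCDHA10 had the highest EP300 peak of the clusters in replicate 1. Its fold enrichment over input, the authors' own value per peak, was 23.1 in replicate 1 and 17.1 in replicate 2, higher than that of 99.5% and 97.2% of the peaks of each list. PCDHA11, the next gene downstream, had 15.8 and 17.9, and PCDHA4 had 16.05 and 13.5. These 3 variable alpha genes were above every beta and gamma gene in both replicates. PCDHA12 followed with 11.4 and 9.71, PCDHA2 with 9.77 and 11.7, and PCDHA9, the gene with the altered core, with 7.56 and 10.4. The order of PCDHA12, PCDHA2 and PCDHA9 differed between the replicates, so they cannot be ranked.

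The 4 genes from PCDHA9 to PCDHA12 were occupied without a gap in the row, and the genes just upstream of them were not. PCDHA5, PCDHA6 and PCDHA8 had no peak within 1 kb in either replicate, nor did PCDHA13 on the other side. PCDHA7 had a peak of 4.76 in replicate 1 alone. At the start of the cluster PCDHA1 had a peak of 5.00 in replicate 1 alone, and PCDHA3 had one of 3.30 in replicate 2 alone. All 3 single-replicate values lay below the lowest value of the occupied variable alpha genes, 7.56 in replicate 1 and 9.71 in replicate 2. Over the 6 occupied variable alpha genes the median was 13.6 in replicate 1 and 12.6 in replicate 2, against 8.80 and 8.95 over all coding genes with an occupied start.

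Both alpha C-type genes were occupied, at lower values. PCDHAC2, which in mice is used by serotonergic neurons to space their axons, had 6.66 and 7.58, and PCDHAC1 had 5.12 and 4.17. The PCDHAC1 summit was the only one among occupied starts to lie upstream of the start, by 18 bases in replicate 1 and 61 in replicate 2. Its peak was 655 bases wide in replicate 1 and 1267 in replicate 2, and that of PCDHAC2 was 1353 and 1641 bases wide.

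In the beta cluster PCDHB2 stood apart from the other genes, with 9.04 in replicate 1 and 11.5 in replicate 2. PCDHB15 had 6.89 and 5.83, and PCDHB5 had 5.12 and 5.73. The last 2 occupied genes were PCDHB12, with 4.46 and 5.37, and PCDHB16, with 4.71 and 4.63. PCDHB2, PCDHB15 and PCDHB5 came in that order in both replicates, while PCDHB12 and PCDHB16 changed places. Peaks in 1 replicate alone were seen at PCDHB14 (3.65, replicate 1), PCDHB1 (5.10, replicate 2) and PCDHB13 (3.41, replicate 2). The other 8 beta genes, PCDHB3, PCDHB4, PCDHB6, PCDHB7, PCDHB8, PCDHB9, PCDHB10 and PCDHB11, had no peak within 1 kb of the start.

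The gamma cluster mixes genes of subfamilies A and B in alternation, and the B genes were occupied more often. Of the 7 PCDHGB genes 4 were occupied (57.1%), and of the 12 PCDHGA genes 1 was (8.33%). The gap was narrower with replicate 2 alone, at 4 of 7 PCDHGB and 3 of 12 PCDHGA genes, and narrower still with a 3 kb window, at 5 of 7 (71.4%) and 5 of 12 (41.7%). In that wider window PCDHGA3, PCDHGA5 and PCDHGA11 counted only through regions near PCDHGA2, PCDHGB2 and PCDHGB7. PCDHGB6 had the highest gamma values, 11.05 in replicate 1 and 9.42 in replicate 2. PCDHGB4 had 6.89 and 5.45, PCDHGB7 had 4.35 and 6.28, and PCDHGB1 had 5.82 and 3.54. PCDHGA10, between PCDHGB6 and PCDHGB7, had 4.01 and 7.19, which was the largest relative gap between replicates among the occupied members (1.79-fold). PCDHGA3 and PCDHGA11 had peaks of 3.79 and 3.33 in replicate 2 alone. PCDHGB2, PCDHGB3 and PCDHGB5 had none within 1 kb, and neither did the other 9 PCDHGA genes. The promoter GC content, given further on, moved with this difference between subfamilies, and its part in it was not tested.

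Of the gamma C-type genes only PCDHGC3 was occupied, with 3.62 in replicate 1 and 5.65 in replicate 2. PCDHGC4, the gamma gene known from mice to be needed for the survival of neurons, had no peak within 1 kb of its start, and PCDHGC5 had none there either. The nearest region to the PCDHGC5 start had its summit 2725 bases downstream in replicate 1 and 2704 in replicate 2, at a fold enrichment of 4.60 and 2.77.

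Over all 19 occupied members the median fold enrichment was 6.89 in replicate 1 and 7.19 in replicate 2, which stand below the medians of 8.80 and 8.95 for all occupied coding genes. With promoters of at most 45% GC, a limit taken up further on, occupied members had medians of 7.56 and 9.71. Occupied coding genes under the same limit had 7.71 and 7.79, so members were not lower there in replicate 2. The median occupied member ranked at the 73.9th and 74.9th percentile of the 2 peak lists, and the median occupied coding gene at the 82.6th and 82.5th. Values were higher in replicate 1 at 9 members and in replicate 2 at 10. The median ratio of the higher to the lower replicate was 1.20 at the members and 1.15 at all 13565 coding genes with a value in both. The peaks at the members were also narrower, with median widths of 672 and 653 bases in replicates 1 and 2, whereas all occupied coding genes had 1303 and 1350.

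The summits sat at almost the same distance from the start in gene after gene. Over the 19 occupied members the median summit lay 292 bases downstream of the start in replicate 1 and 282 in replicate 2, and the summits of the 2 replicates lay a median of 31 bases apart. In the 6 variable alpha genes the offsets spanned only 268 to 338 bases in replicate 1 and 263 to 345 in replicate 2, with at most 31 bases between replicates of the same gene. The 3 single-replicate start peaks of replicate 1 lay at 332 bases in PCDHA1, 290 in PCDHA7 and 333 in PCDHB14. Those of replicate 2 lay at 326 in PCDHA3, 331 in PCDHB13, 366 in PCDHB1, 396 in PCDHGA3 and 260 in PCDHGA11, so that all 8 were between 260 and 396 bases. A window from 200 to 400 bases, chosen after the values were seen, held the summit at 17 of 19 members in replicate 1 and 16 of 19 in replicate 2. The same window held it at 36.6% and 36.3% of all occupied coding genes, whose median summits lay 233 and 235 bases downstream.

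**Figure D2:**
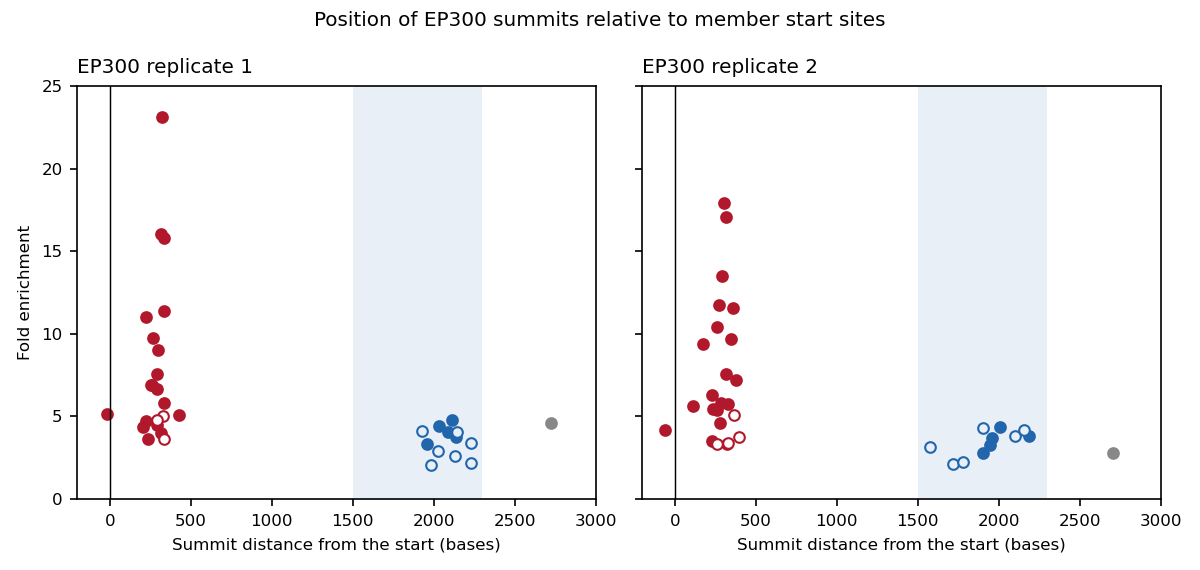
Distance of each EP300 summit from the member start it belongs to, in bases (x axis), against fold enrichment (y axis), for replicate 1 (left) and replicate 2 (right); filled points were found in both replicates, open points in 1, red marks peaks within 1 kb of a start, blue those in the shaded window from 1.5 to 2.3 kb, and grey any other peak within 3 kb. Summits form a tight column near 300 bases that reaches high values and a second, lower group near 2 kb.

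A second, weaker position recurred about 2 kb downstream of the starts. A window from 1.5 to 2.3 kb, again chosen after the values were seen, held a summit in both replicates at 5 of 53 members (9.43%), against 2.88% of coding genes. The closest pair of member starts is 3.37 kb apart, so this window does not reach within 1 kb of the next start. PCDHA10 had 4.08 in replicate 1 and 2.78 in replicate 2 there, far below its start-site values. PCDHB15 had 3.75 and 3.28. PCDHGA2 had 4.80 and 3.85, PCDHGB2 had 4.39 and 3.71, and PCDHB8 had 3.32 and 4.37, and these 3 genes had no peak at the start itself. PCDHB8 is 2750 bases long, and its summits at 1957 and 2011 bases lie inside the gene.

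Counting either replicate, 18 of 53 members (34.0%) had a summit in that window, against 5.98% of coding genes. Of these 18, 11 were members without an occupied start. Replicate 1 alone showed it at PCDHA1, PCDHA2, PCDHB3, PCDHB5, PCDHB7, PCDHB16 and PCDHGA1, and replicate 2 alone at PCDHA5, PCDHA7, PCDHGA3, PCDHGA7, PCDHGB6 and PCDHGA10. Values were low throughout, from 2.05 at PCDHB7 to 4.80 at PCDHGA2 in replicate 1, and from 2.10 at PCDHA5 to 4.37 at PCDHB8 in replicate 2. Only 5 of 12 such peaks in replicate 1 and 5 of 11 in replicate 2 were shared, compared with 19 of 22 and 19 of 24 peaks near the starts. Together, 35 of the 53 members had a peak of at least 1 replicate near the start or in this window, and 18 (34.0%) had none, against 22.2% of coding genes.

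The members resemble each other in sequence, and the treatment of reads that map to several of them is not given in the sources used here. Peaks at near-identical stretches are therefore uncertain in which gene they belong to, and the part of this in the recurring positions was not tested.

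Along the whole stretch from the first to the last member and up to 1 kb beyond, there were 31 reproducible regions, of which 19 lay at starts, 5 at the second position and 7 elsewhere. Replicate 1 had 43 joined peaks in the stretch and replicate 2 had 52, and 31 of each were shared (72.1% and 59.6%), against 74.5% and 73.9% of all peaks on chromosomes 1 to 22 and X. Unshared peaks were weak in general, with medians of 3.47 and 3.41 in replicates 1 and 2. Those of the stretch had medians of 3.85 and 3.33. The highest of them, 7.32 in replicate 1, lay between the beta and gamma clusters at chr5:141326223-141326872 and carried no gene symbol.

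Of the 7 regions elsewhere, 3 lay in the downstream part of the alpha genes, after the PCDHAC2 start. The strongest, at chr5:141001321-141002340, was annotated as intronic and had 9.25 in replicate 1 and 6.25 in replicate 2. Only 433 bases separated it from the next, at chr5:141002774-141003566, with 6.29 and 5.63. The third, at chr5:140984972-140986276, had 5.61 and 4.16. These values exceeded the start-site values of PCDHAC1 in replicate 1, and the strongest region exceeded those of PCDHAC2 in replicate 1 but not in replicate 2.

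At the gamma end, 2 regions followed PCDHGC5, and a last one lay beyond the final exon. The region at chr5:141494447-141495622, annotated as 3′ UTR by the authors, had 4.90 and 4.98, and the one just downstream of the gamma genes at chr5:141513183-141514557 had 5.75 and 5.00. The remaining region, at chr5:141241378-141242169 between PCDHB14 and PCDHB15, was the weakest of the 31 in both replicates, with 2.91 and 2.10. Long stretches had no reproducible region: 92.6 kb from PCDHB15 to PCDHGA2, 91.0 kb from the last alpha region to PCDHB2, 57.6 kb from PCDHGB7 to PCDHGC3 and 50.04 kb from PCDHA12 to PCDHAC1.

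**Figure D3:**
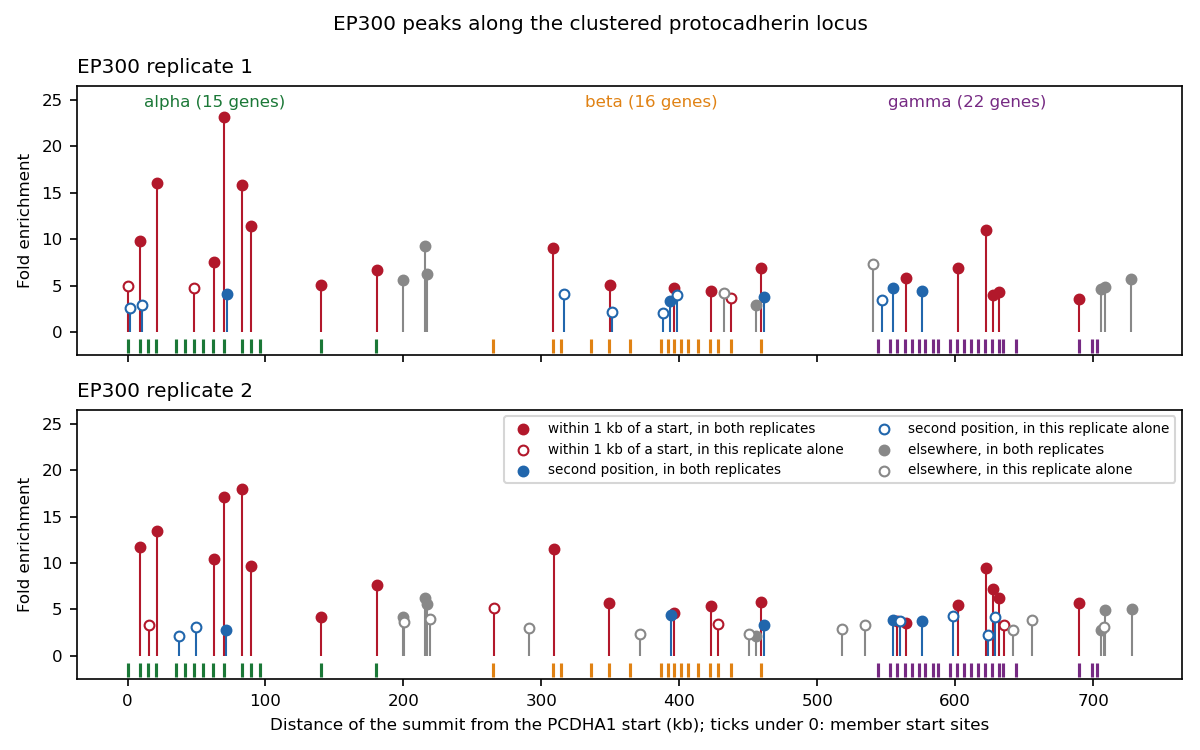
Fold enrichment (y axis) of every EP300 peak in the stretch against the distance of its summit from the PCDHA1 start in kb (x axis), replicate 1 above and replicate 2 below; ticks under 0 mark member starts, red marks peaks within 1 kb of a start, blue the second position, grey other peaks, and filled points were found in both replicates. The highest 3 peaks of each replicate lie in the alpha cluster at PCDHA4, PCDHA10 and PCDHA11, and open points stay at 7.32 or below.

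The coding genes that lie among the members but belong to other families had no reproducible region at their starts. SLC25A2, a mitochondrial amino acid carrier, had a peak of 2.91 and TAF7, a subunit of the general transcription factor TFIID, one of 3.33, both in replicate 2 alone. Beyond the clusters EP300 was found at start sites on both sides, although ZMAT2, on the alpha side, had no peak within 1 kb. HARS2, also on the alpha side, had 9.77 and 8.72, and DIAPH1 on the gamma side had 11.4 and 12.4. HDAC3, the histone deacetylase gene next along, had 10.2 and 9.83.

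Member promoters were poor in GC compared with coding genes in general. The median GC content of the 300 bases around the start was 39.7% for the 47 members in the table, against 62.7% for 15813 coding genes, and the median number of CpG dinucleotides was 7 against 22. Within the gamma cluster the median was 38.3% in PCDHGA and 48.3% in PCDHGB genes. Coding genes with at most 45% GC, a limit chosen after the values were seen, were occupied in 17.9% of 1829 cases, and the members among them in 11 of 35 (31.4%). By the authors' gene names the order turned: 10 of these 35 members (28.6%) had overlapping peaks of both replicates, against 31.9% of the 1829 coding genes. Whether members stood above or below genes with similarly AT-rich promoters therefore depended on the rule, while their share was below that of all coding genes by both.

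Occupied and unoccupied members had median GC contents of 40.3% and 39.2%, but the clusters differed. The occupied median was the higher in the gamma cluster (48.7% against 40.3%) and the alpha cluster (38.5% against 35.7%), and the lower in the beta cluster (38.0% against 42.0%). Within the gamma subfamilies the medians lay close together. They were 48.7% against 48.3% in PCDHGB genes and 38.3%, from 1 occupied gene, against 38.2% in PCDHGA genes. Variable alpha genes alone had 37.3% against 35.7%. The alpha genes with the highest EP300 values were AT-rich: PCDHA10 and PCDHA11 had 37.3% GC, and PCDHA4 had 40.3%. The C-type genes were the GC-rich ones, with 66.0% in PCDHAC1, 63.0% in PCDHAC2, 59.0% in PCDHGC3 and 60.7% in PCDHGC4, and their EP300 values were at most 7.58. The contrast can be read in the 250 bases before the start of PCDHA10, with 35.2% GC and 7 CpG, and of PCDHAC2, with 62.4% GC and 13 CpG. CGCT on the plus strand is in capitals.
PCDHA10 (chr5:140855647-140855896): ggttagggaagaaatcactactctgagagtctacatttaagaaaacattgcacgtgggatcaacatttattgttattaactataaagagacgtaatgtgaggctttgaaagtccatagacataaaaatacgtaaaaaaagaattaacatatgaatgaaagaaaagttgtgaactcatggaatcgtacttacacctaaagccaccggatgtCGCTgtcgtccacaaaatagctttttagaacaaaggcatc
PCDHAC2 (chr5:140966226-140966475): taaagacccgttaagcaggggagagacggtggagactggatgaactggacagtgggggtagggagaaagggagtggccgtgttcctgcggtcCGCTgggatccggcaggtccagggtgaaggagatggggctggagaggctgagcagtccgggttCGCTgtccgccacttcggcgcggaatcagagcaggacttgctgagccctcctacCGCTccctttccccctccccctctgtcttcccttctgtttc
CGCT occurs once in this stretch of PCDHA10 and 3 times in that of PCDHAC2. So short a match does not show that the conserved element around it is present.

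**Figure D4:**
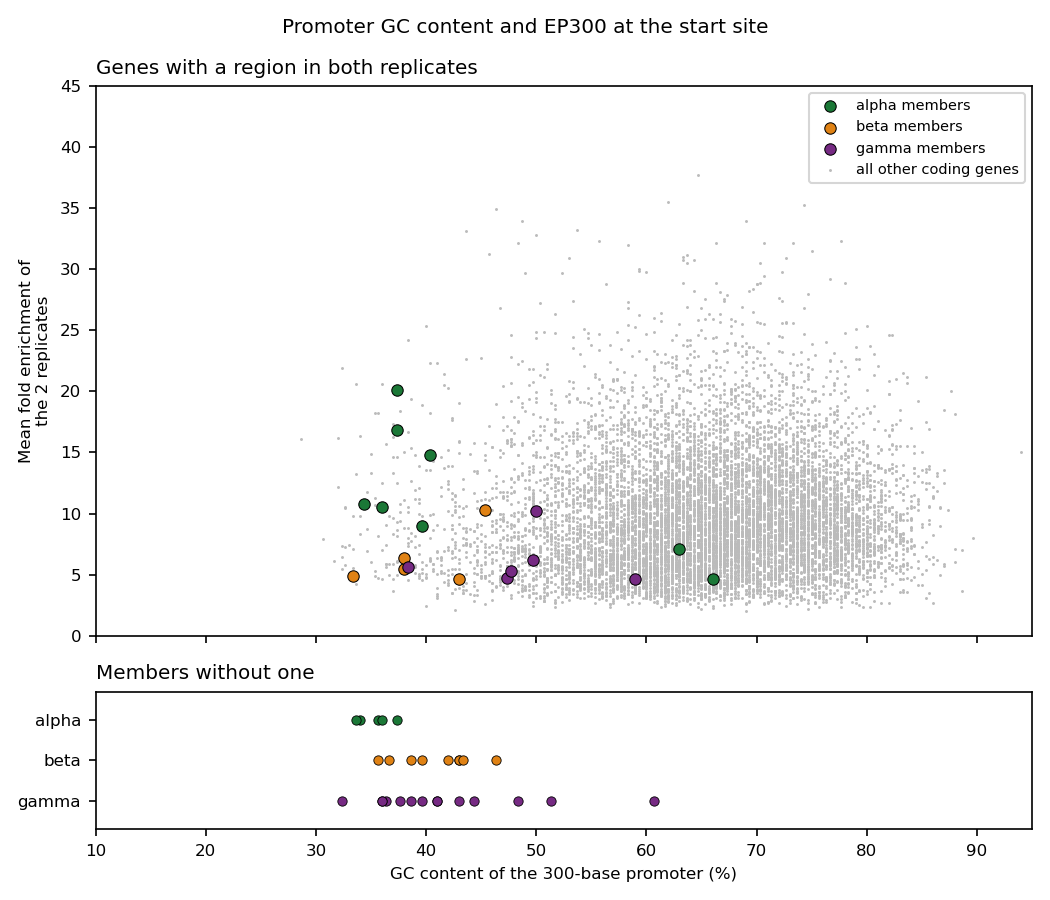
GC content of the promoter in percent (x axis) against the mean fold enrichment of both replicates (y axis, upper panel) for members with a region at the start in both replicates, in colour by cluster, and for all other coding genes with one, in grey; the lower panel places the members without such a region by GC content alone. Members other than the C-type genes lie between 32.3% and 51.3% GC, in the thinly filled low-GC part of the grey cloud, and AT-rich alpha genes reach the highest values among them.

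The CGCT core and its longer forms were more frequent in member promoters than in other promoters, and the core was found in occupied and unoccupied members alike. CGCT on either strand was in 46 of 47 member promoters (97.9%), against 70.0% of all 35116 RefSeq promoter entries. Restricted to the plus strand and the 100 bases before the start, a choice made after the values were seen, it was in 44 of 47 (93.6%), against 28.1%. It was in 18 of 19 occupied members and in 26 of 28 members without a region. The longer form GATGTCNCT on the plus strand, which contains the core where N is G, was in 10 of 11 variable alpha promoters and in 0.458% of all entries. Of the occupied variable alpha genes 5 of 6 had it, all but PCDHA11, and of the unoccupied ones 5 of 5. The beta form GGCGCTGCAG on the plus strand, which also contains the core, was in 10 of 14 beta promoters and in 0.273% of all entries. Both forms were read from member sequences, the beta form from PCDHB15. All 5 occupied beta genes had the beta form, as did 5 of the 9 unoccupied beta genes with a sequence. PCDHB15 is one of the occupied 5 and matches by construction, and unoccupied PCDHB3, PCDHB7 and PCDHB14 differ from the form only in bases after the core. These counts therefore cannot show whether the form goes with occupancy.

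The core of the CTCF consensus on either strand matched 1 of 47 member promoters (2.13%), that of PCDHB9, and 10.6% of all entries. Among promoters with at most 45% GC it matched 2.86% of members and 1.97% of coding genes. The PCDHB9 match overlaps the CGCT core of that gene. The TATA box, TATAAA on either strand, was in 6 of 47 (12.8%) and in 11.5% of all entries. Among promoters with at most 45% GC it was in 17.1% of members and in 35.6% of coding genes. A missing match says only that these letters are not in this window.

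The protocadherins outside the clusters, single genes that lie mostly on other chromosomes, gave a higher share than the members, with a wide spread of values. Of 11 non-clustered genes 6 were occupied, a share below the 72.3% of all coding genes. Within 3 kb 9 of the 11 had a reproducible region, and 10 had overlapping peaks of both replicates named for them, against 75.6% and 74.6% of all coding genes. PCDH1 had 19.1 in replicate 1 and 18.8 in replicate 2, close to PCDHA10 and PCDHA11. PCDH7 had 10.6 and 8.70, and PCDH10, which guides axons in mice, had 9.31 and 7.21. The lowest was PCDH20 with 3.97 and 4.21. PCDH8, PCDH12, PCDH17, PCDH18 and PCDH19 had no reproducible region within 1 kb.

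Genes whose products act on or with the clustered protocadherins were occupied nearly throughout. Of 15 genes for chromatin regulators known to act at the clusters 14 were occupied, all but SMC1A. The cohesin genes SMC3 and RAD21 had 19.6 and 21.0, and 19.4 and 18.2, in replicates 1 and 2. CTCF had 13.0 and 8.39, and SMCHD1, a repressor of the clusters in mice, had 13.0 and 13.4. All 12 genes for binding partners and proteases were occupied, with CDH2 (N-cadherin) the highest at 18.8 and 22.6. ADAM10, the protease that sheds their outer part, had 6.61 and 7.46. Both lists stand above the 72.3% of all coding genes.

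The labelled cell state was compared with marker genes, for which a peak is no measure of expression. Of 9 naive or pluripotency markers 7 were occupied, with medians of 5.21-fold and 6.19-fold in replicates 1 and 2, the lowest of the lists examined. KLF17 and DPPA3 were not occupied within 1 kb, though peaks named for them were in both replicates. Of 6 neural markers 3 were occupied, TUBB3, SOX1 and MAP2, at a median of 5.40 and 7.76, and PAX6, NEUROG2 and RBFOX3 were not. Of 5 fibroblast markers 4 were occupied, at a median of 12.9 and 10.4, with COL1A2 at 18.2 and 20.1, and POSTN was not. These counts stand beside the 72.3% of all coding genes and do not set the naive markers apart from the others. DCN, also on the list of 6 fibroblast markers, had no start site here and was left out of the 5. Coding genes left without a strand have no peak named for them, so 4 of 5 may overstate the share.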

How the data were processed

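Per the file headers, each deposited row is 1 summit with a signal value, a ratio (fold enrichment over input) given by the authors. Per the file headers, a -log10 p-value, a -log10 q-value and a score, which was not used, come with it. Peaks were called per sample against input, per the names in the deposited tables, and annotated with ChIPseeker. The submitters' processing notes name fastp 0.19.11 and GRCh38. For the aligner, the caller, its threshold and multiply mapped reads, the sources used here give nothing. The tables hold no counts, so read depth is unknown.

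Rows of equal interval were joined, keeping the summit of highest fold enrichment and the best -log10 q-value. Peaks of both replicates on chromosomes 1 to 22 and X that overlapped by at least 1 bp were merged into reproducible regions, a step checked on simulated intervals. Start sites were RefSeq 5′ ends (GRCh38.p14), with strand from the promoter table for 15813 genes, the authors' annotation for 3027 and the other members for 5. The 1129 coding genes left without strand have no peak named for them. Counting them as unoccupied lowers the share of all coding genes to 68.3%, and the 15813 genes alone give 70.9%. Promoter sequences span 250 bases before to 50 after the start. Only descriptions were made. All members may be named, with those of highest and lowest values in each cluster, all C-type genes and those with peaks in 1 replicate or none in full; of the comparison lists and flanking genes, some are named with values. Members, lists and windows were chosen with earlier results of these data known. Alternatives were a 3 kb window, the authors' start sites, 50% overlap, minimum fold enrichment or -log10 q-value of 5, unjoined rows, either replicate and each replicate alone. Python 3.11.15 and pandas 2.3.3 were used.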

Additional observations from a re-analysis of the deposited data

How the results depend on the processing

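Requiring a fold enrichment of at least 5 in both replicates left 12 occupied members, 12 members named by the authors in both and 15 regions in the stretch. The median fold enrichment of the start-site peaks, 6.36 as the mean of both replicates, became 6.89 with each summit row counted, 5.37 with a 3 kb window and 5.32 with peaks of either replicate. With 1 replicate alone, in which case replicate 2 always gave the higher number of members and regions, occupied members were 22 to 24, named members 25 to 27, regions 43 to 52, the median 6.89 to 7.19 and occupied coding genes 14021 to 14045. The 3 kb window gave 26 occupied members, some of them through regions near a neighbouring gene. Both 50% overlap and the authors' start sites gave 19. In each of these settings a smaller share of members than of coding genes was occupied. No paired analysis was possible because there is only 1 group of EP300 samples. Read depth is unknown, so a member without a peak may hold EP300 below what these libraries could detect. RefSeq 5′ ends can lie away from the start in use, and the windows chosen after the values were seen fit these data by construction.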
